A study of Mus musculus with 6 samples.

Results

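The mRNA levels of 10 genes of the actin and contractile cytoskeleton were followed in bulge stem cells (bulge SCs), the hair follicle stem cells of the skin, with and without integrin-linked kinase. The genes were chosen by name and cover the actins Actb, Actg1 and Acta2, the transgelins Tagln and Tagln2, the myosin light chain Myl9, the tropomyosin Tpm1, the calponin Cnn2, the cross-linker filamin A (Flna) and the non-muscle myosin heavy chain Myh9. All 10 were found among the 43274 genes of the deposited tables, and all 10 passed the minimum mean of 10 normalized counts (reads divided by a size factor of the library) that left 16368 genes for testing. None of the 10 genes passed the threshold for a difference between the genotypes, an adjusted p of at most 0.05 in limma, a linear model fitted to log2 values over all genes tested. Of all genes tested, 2.93% passed this threshold as higher and 0.599% as lower in ILK-K5. For Acta2 and Flna, all ILK-K5 libraries lay above all control libraries, as they did for 10.9% of all genes tested.

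FACS had isolated the bulge SCs by CD34 and by a high level of α6 integrin at the surface, from mice of a mixed C57Bl6 and 129/Sv background at postnatal day 21. The genotype ILK fl/+ K5-Cre, labelled ILK +/-, gave the 3 control libraries, and the genotype ILK fl/fl K5-Cre, labelled ILK -/-, gave the 3 ILK-K5 libraries. The controls thus also carried the Cre and 1 floxed allele, and the Cre is driven by the keratin 5 promoter of keratinocytes, so that cells without this promoter activity keep Ilk. The study asked what the loss of integrin-linked kinase does to the stem cells of the bulge. No source says whether a library held 1 mouse or several, so the p-values measure the spread between these libraries.

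Actin filaments are built from actin monomers, are stabilised by tropomyosin, calponin and transgelin, are cross-linked by filamin and are pulled by myosin II, whose activity is set by its light chains. Integrin-linked kinase is an adaptor that couples integrins at focal adhesions to this network. Many of these genes are targets of serum response factor (Srf), which binds the CArG box in their regulatory regions and whose coactivators of the Mrtf family are released when the pool of free actin monomer shrinks. Acta2 and Tagln are used as markers of smooth muscle, pericytes and myofibroblasts, whereas Actb, Actg1, Flna and Myh9 are expressed by nearly all cells.

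The libraries held 8228019 to 11969072 reads on genes, and 1 read was worth 0.726 to 1.52 normalized counts. The share of mitochondrial reads ranged from 11.5% to 27.6%, with control libraries 1 and 2 and ILK-K5 library 1 at 23.6% or more and the other libraries at 16.9% or less. Ilk itself had 10.6, 16.7 and 38.5 normalized counts in the 3 control libraries, against 14.8, 30.9 and 29.2 in the mutant ones (log2 fold change 0.30, adjusted p = 0.933), but 89.7% of its exon bases also lie in exons of Taf10 or Rrp8 on the other strand, so this count is no check of the genotype. Of 10 bulge markers, Cd34, a gene of the sort, had a log2 fold change of -1.90 (947 to 2009 normalized counts in control and 296 to 560 in ILK-K5 libraries, adjusted p = 0.0239, called in 2 of 6 fits that each left out 1 library, namely when this was control library 2 or ILK-K5 library 2), and none of the other 9 was called. All 13 macrophage markers rose (C1qa not without ILK-K5 library 2, adjusted p = 0.0703), and their summed level was 103 to 149 normalized counts in control and 11359 to 15643 in ILK-K5 libraries, with 5 of them at 3 reads or fewer in every control library. In bulk samples such as these, more or fewer cells of a type and more or less RNA per cell cannot be told apart.

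Sequences of the actins are shown first, because reads on closely related copies bear on how far their counts can be read. The first 45 coding bases are given from the GENCODE M21 transcripts on GRCm38, with capitals marking the bases that differ from Actb in the alignment. Actb lies on the minus strand at chr5:142905642-142905686, Actg1 on the minus strand at chr11:120348047-120348091, and Acta2 on the minus strand at chr19:34252509-34252553.
Actb: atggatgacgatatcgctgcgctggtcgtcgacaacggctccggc
Actg1: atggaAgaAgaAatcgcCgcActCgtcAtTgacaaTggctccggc
Acta2: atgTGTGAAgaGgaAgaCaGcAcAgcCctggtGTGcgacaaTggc
Over the whole coding sequence, Actg1 was 88.6% identical to Actb with a longest identical run of 62 bases, and Acta2 was 82.8% identical with a longest run of 47 bases.

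Among windows of 100 bases along the transcripts, 29.9% of those of Actg1 also occur in 6 other genes, whereas 0.644% of those of Actb and none of those of Acta2 occur elsewhere. For Tagln, 67.9% of the exon bases lie in exons of other genes, chiefly Gm48529 on the opposite strand. Of its windows, 48.3% are found in other genes. Gm48529 is not among the genes of the deposited tables, and neither are Gm16385, Gm8543 and Gm6375, which share windows with Actg1. Of the remaining members, only Myh9 shares windows, 0.174%, with Myh10. Counts of Actg1 and Tagln are therefore uncertain to a degree that those of the other genes are not, since the sources used here give neither the counting program nor its use of strand.

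Actb, the cytoplasmic β-actin (chr5:142903115-142906754, minus strand), had 3434, 3894 and 7837 normalized counts in libraries 1, 2 and 3 of the control, the order used throughout, and 5328, 10897 and 9173 in those of ILK-K5. Control library 3 lay above ILK-K5 library 1, so the genotypes overlapped. The log2 fold change of ILK-K5 over control was 0.78 (95% interval -0.13 to 1.70, adjusted p = 0.531 in limma).

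Actg1, the cytoplasmic γ-actin (chr11:120345690-120348542, minus strand), had 9856, 5485 and 6727 normalized counts in the control and 8388, 8391 and 6092 in the ILK-K5 libraries. The highest and the lowest value both belonged to control libraries, and the log2 fold change was 0.08 (95% interval -0.64 to 0.80, adjusted p = 0.966). Processed pseudogenes that share windows with Actg1 had counts of their own, and whether their reads came from Actg1 mRNA was not tested. With Gm12715, Gm8399 and Actg-ps1 added, the sums were 10602, 6427 and 9601 in the control and 9168, 11197 and 7916 in the ILK-K5 libraries, and the log2 fold change was 0.10 (adjusted p = 0.954). The share of these summed counts on the pseudogenes was 7.03%, 14.7% and 29.9% in the control libraries and 8.51%, 25.1% and 23.0% in the ILK-K5 libraries. It was at most 14.7% in the libraries with the higher mitochondrial share and at least 23.0% in the others, in both genotypes. The origin of this difference was not tested.

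Acta2, the α-actin of smooth muscle (chr19:34241090-34255590, minus strand), had 37.6, 4.56 and 25.4 normalized counts in the control libraries, which were 39, 3 and 35 reads. In the ILK-K5 libraries it had 71.7, 119 and 100.3 normalized counts, which were 63, 154 and 103 reads. All 3 ILK-K5 libraries lay above all 3 control libraries, with means of 22.5 ± 16.7 (SD, n = 3) and 96.9 ± 23.7 (SD, n = 3). The log2 fold change was 2.43 (95% interval 0.82 to 4.03), the largest of the 10 genes, but the adjusted p was 0.129 in limma. Acta2 passed the threshold in DESeq2 (log2 fold change 2.05, adjusted p = 0.0298) and not in edgeR. Control library 2, with 3 reads, set much of the control spread, and without it the estimate was 1.59 (adjusted p = 0.194).

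Per length, the actin pool of these cells was almost wholly cytoplasmic. The deposited FPKM allow for transcript length and are, for each gene, a fixed multiple of its normalized count. In FPKM the mean of Actb was 193 ± 92.6 for the controls and 324 ± 109 for ILK-K5 (SD, n = 3 each), and that of Actg1 was 284 ± 86.9 and 294 ± 51.2. Acta2 stood at 1.30 ± 0.963 FPKM in control and 5.58 ± 1.36 FPKM in ILK-K5 libraries. Of the other 3 actin genes, the skeletal isoform Acta1 had 65.3 to 94.6 normalized counts in control and 69.2 to 97.9 in ILK-K5 libraries, the cardiac isoform Actc1 had 25 reads in control library 1 and 0 elsewhere, and the enteric isoform Actg2 had at most 2 reads in any library.

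The summed FPKM of the 6 actin genes was 522, 366 and 566 in the control and 539, 754 and 597 in the ILK-K5 libraries. The means were 485 ± 105 and 630.1 ± 112 (SD, n = 3 each), and the libraries overlapped (difference 145.5, exact permutation test, two-sided, p = 0.2, where 0.1 is the smallest p that 3 against 3 libraries allow). The share of Acta2 in this sum does not depend on the scaling between libraries. It was 0.415%, 0.0718% and 0.259% in the control and 0.766%, 0.906% and 0.968% in the ILK-K5 libraries, with no overlap (exact permutation test, two-sided, p = 0.1, again the smallest possible). The ratio of Actb to Actg1 in FPKM ran from 0.346 to 1.16 in control and from 0.630 to 1.49 in ILK-K5 libraries and so overlapped.

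**Figure D1:**
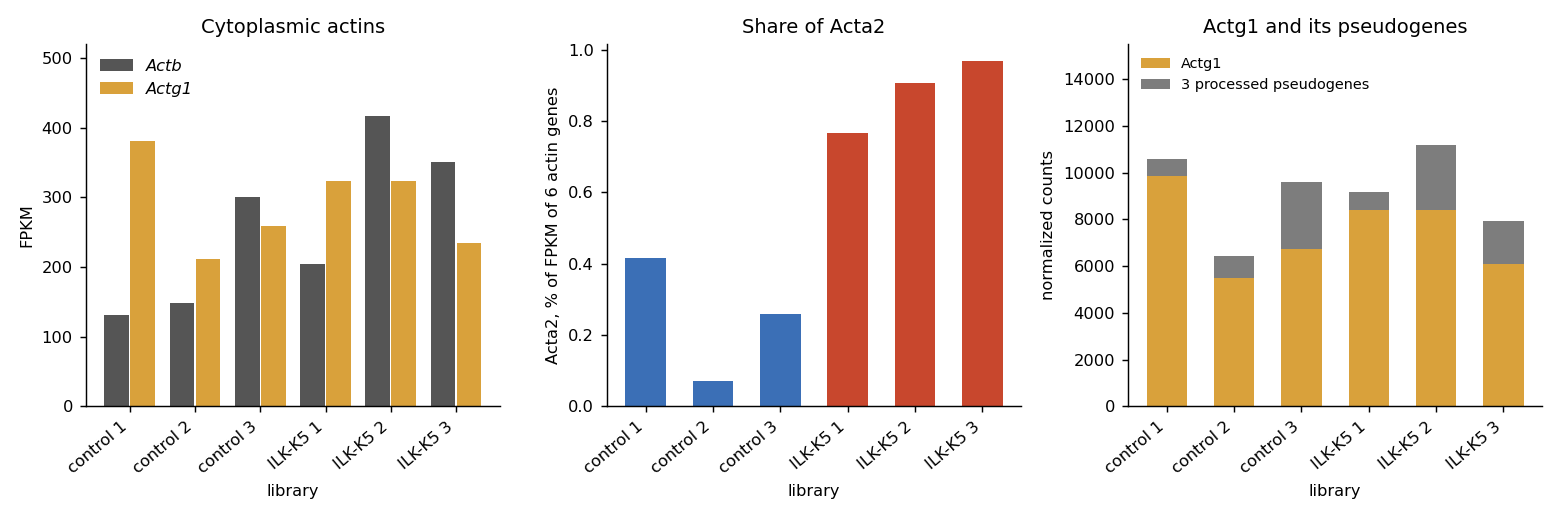
Left, FPKM of Actb (grey) and Actg1 (yellow) in each of the 6 libraries; centre, FPKM of Acta2 as a percentage of the summed FPKM of 6 actin genes (blue, control; red, ILK-K5); right, normalized counts of Actg1 (yellow) with its 3 processed pseudogenes stacked on top (grey). The Acta2 share runs from 0.0718% to 0.415% in control and from 0.766% to 0.968% in ILK-K5 libraries, while Actb and Actg1 overlap between the genotypes.

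Tagln and Tagln2 encode transgelins, small actin-bundling proteins of the calponin family, with Tagln typical of smooth muscle and Tagln2 widely expressed. Tagln (chr9:45929619-45936058, minus strand) had 4.82, 3.04 and 21.8 normalized counts in the control libraries, from 5, 2 and 30 reads, and 23.9, 30.9 and 17.5 in the ILK-K5 libraries, from 21, 40 and 18 reads. Control library 3 lay above ILK-K5 library 3, and the log2 fold change was 1.59 (95% interval -0.18 to 3.36, adjusted p = 0.492). Pcsk7, which overlaps part of its exons on the other strand, had 13, 39 and 98 reads in the control and 42, 135 and 68 reads in the ILK-K5 libraries.

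Tagln2 (chr1:172500047-172507380, plus strand) had 1415, 1048 and 2064 normalized counts in the control and 1463, 2431 and 1484 in the ILK-K5 libraries. The genotypes overlapped, and the log2 fold change was 0.26 (95% interval -0.49 to 1.01, adjusted p = 0.876). Per length, Tagln2 stood at 74.3 ± 25.4 FPKM in control and 88.3 ± 27.2 FPKM in ILK-K5 libraries (SD, n = 3 each), against 0.639 and 1.56 FPKM for Tagln.

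Myosin II was represented by its heavy chain Myh9 and its regulatory light chain Myl9, whose phosphorylation switches the motor on. Myh9 (chr15:77760587-77842175, minus strand) had 3313, 1735 and 1891 normalized counts in the control and 4358, 2907 and 2191 in the ILK-K5 libraries (log2 fold change 0.45, 95% interval -0.35 to 1.25, adjusted p = 0.762). In both genotypes library 1 was the highest, unlike for most of the other genes. Myl9 (chr2:156775420-156781658, plus strand) had 117, 73.0 and 190.1 normalized counts in the control and 108, 150.4 and 118 in the ILK-K5 libraries. All 3 ILK-K5 values of Myl9 lay within the control range, and its log2 fold change was 0.08 (95% interval -0.84 to 1.0, adjusted p = 0.974), with a sign that changed to negative in edgeR, DESeq2 and under quantile normalization.

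Tpm1 and Cnn2 encode a tropomyosin, which lies along the filament, and a calponin, which binds actin and restrains myosin. Tpm1 (chr9:67022590-67049406, minus strand) had 1349, 2019 and 2749 normalized counts in the control and 2180, 4052 and 3143 in the ILK-K5 libraries (log2 fold change 0.63, 95% interval -0.15 to 1.41, adjusted p = 0.573). Cnn2 (chr10:79988584-79996062, plus strand) had 84.9, 190.1 and 426 normalized counts in the control and 183, 440.4 and 370.2 in the ILK-K5 libraries (log2 fold change 0.70, 95% interval -0.58 to 1.99, adjusted p = 0.770). For both genes control library 3 lay within the ILK-K5 range. The control libraries of Cnn2 differed among themselves by a factor of 5.02, more than its genotype means did.

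Flna (chrX:74223461-74249820, minus strand), filamin A, cross-links actin filaments into networks and tethers them to integrin tails. It had 987, 1204 and 2240 normalized counts in the control and 2686, 2895 and 2896 in the ILK-K5 libraries. All ILK-K5 libraries lay above all control libraries, and the ILK-K5 libraries differed among themselves by a factor of only 1.08, against 2.27 among the controls. The log2 fold change was 1.03 (95% interval 0.29 to 1.76, adjusted p = 0.175 in limma). Without control library 3, the highest control, it was 1.37 with an adjusted p of 0.0249, and without any other 1 library the adjusted p was 0.301 or more.

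**Figure D2:**
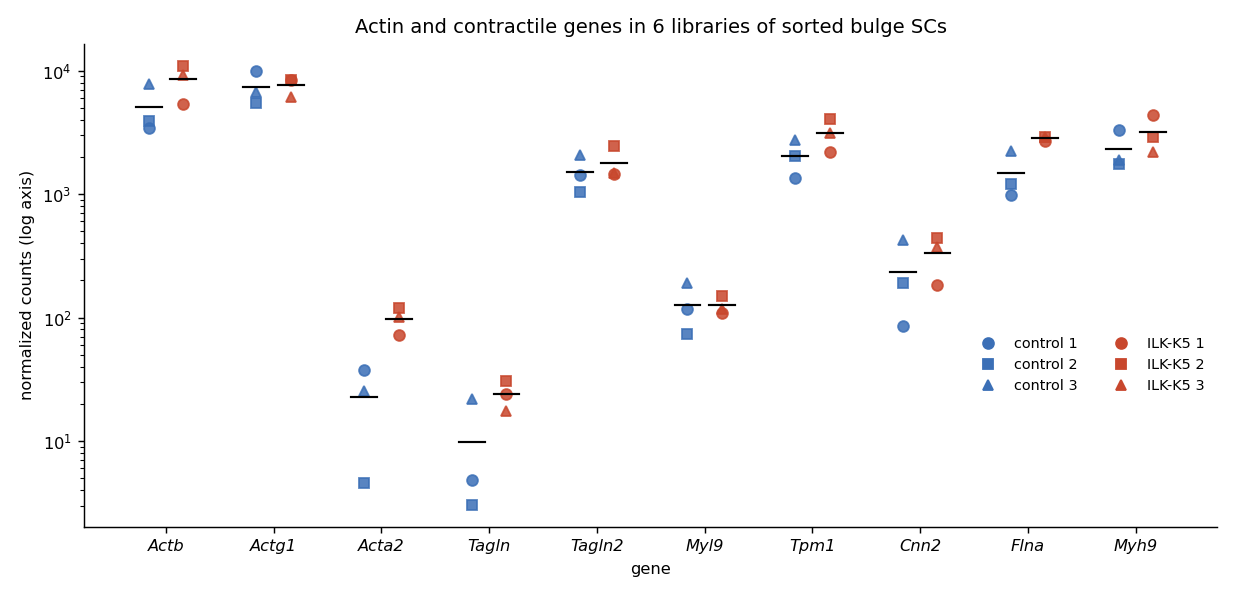
Normalized counts on a log axis of the 10 genes in the 3 control (blue) and 3 ILK-K5 (red) libraries; each symbol is 1 library, with circle, square and triangle for libraries 1, 2 and 3, and black bars are the means of the 3 libraries. The libraries of the genotypes are separated for Acta2 and Flna and overlap for the other 8 genes.

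Across the list, 0 of 10 genes were called higher in limma, where 2.93% of all genes tested were, and 0 of 10 lower, where 0.599% were. In edgeR 0 of the 10 were called, beside 2.58% of all genes called higher, and in DESeq2 1 was, beside 4.72%. Without control library 3, 1 was called in limma, beside 3.42% of all genes. Before adjustment, 2 of the 10 genes, Acta2 and Flna, had a p under 0.05 with each of the 3 tools, where 8.18% of all genes did so in limma in the same direction and 12.3% in either direction. Libraries without overlap, higher in ILK-K5, were found for 2 of the 10 genes and for 10.9% of all genes tested, and the opposite separation for 0 of the 10 and for 6.95%. The 10 log2 fold changes all lay above 0 in limma, where 50.5% of all genes did, and 9 did so in edgeR and in DESeq2. Their median was 0.67 beside 0.0054 for all genes tested.

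The spread between libraries of a genotype varied among these genes. The median within-genotype SD of log2 values was 0.51 for the 10 genes and 0.55 for all genes tested, which were not matched for count level. The SD was larger for Acta2 (1.08), Tagln (0.97) and Cnn2 (0.94). At this spread and number of libraries, the smallest log2 fold change among all called genes was 1.12 in size, which is above the estimate of every member except Acta2 and Tagln. The upper limits of the 95% intervals ran from 0.80 for Actg1 to 4.03 for Acta2, with 1.70 for Actb and 1.41 for Tpm1. Differences of these sizes are thus not excluded.

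**Figure D3:**
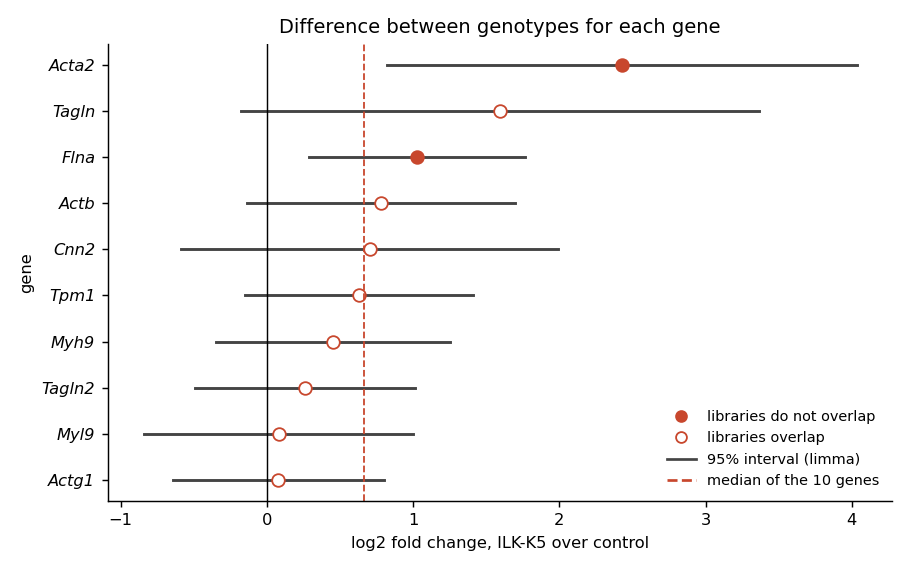
Log2 fold change of ILK-K5 over control for each of the 10 genes with its 95% interval from limma; filled points mark genes whose libraries do not overlap, and the dashed line is the median of the 10 genes, 0.67. The intervals of Acta2 and Flna lie above 0 before adjustment, and those of the other 8 genes include 0.

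The libraries differed in a like order for many of these genes. ILK-K5 library 2 was the highest of all 6 libraries for 6 of the 10 genes, and the lowest was control library 2 for 6 and control library 1 for 4. Within the controls, library 3 was the highest for 7 genes, and within the ILK-K5 libraries, library 1 was the lowest for 7. The median of the 10 genes relative to the control mean was 0.20 in ILK-K5 library 1, 1.06 in library 2 and 0.82 in library 3 on the log2 scale. Control library 3 and ILK-K5 libraries 2 and 3 also had the lower mitochondrial shares, 11.5%, 14.4% and 16.9%, and the part of this in the results was not tested.

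The names of the data columns carry a number that 1 control and 1 ILK-K5 library share, and no source says what the numbers stand for. Those of libraries 2 and 3 end in the same digits and that of library 1 does not, and this likeness, which no source explains, was tried as a grouping. Within libraries 2 and 3 alone, the log2 fold change of Acta2 was 3.18 (adjusted p = 0.102) and that of Flna 0.82 (adjusted p = 0.421). With a term for library 1 against libraries 2 and 3, over all 6 libraries, the adjusted p was 0.058 for Acta2 and 0.055 for Flna, so that 0 of the 10 genes were called where 5.17% of all genes were called higher. In this grouping library 1 is a single library per genotype, which gives no test of its own. With a block for the shared number itself, the adjusted p in limma was 0.0394 for Acta2 and 0.0403 for Flna. In that fit 848 of the 16368 genes tested were called higher. The paper states that controls were littermates of the ILK-deficient mice, but no source links the numbers to litters.

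For RT-qPCR the study named β-actin (Actb), Gapdh, S26 (Rps26) or S18 as the reference, without saying which served where. S18 was not followed here. Gapdh, a glycolytic enzyme, had 1709, 2334 and 5750 normalized counts in the control and 2831, 8659 and 7349 in the ILK-K5 libraries, with a log2 fold change of 0.99 (adjusted p = 0.559) beside the 0.78 of Actb. For both genes, control library 3 was the highest control and ILK-K5 library 1 the lowest of its genotype. The ribosomal protein gene Rps26 had 829, 1898 and 2659 normalized counts in the control and 835, 2407 and 1553 in the ILK-K5 libraries, with a log2 fold change of -0.14 (adjusted p = 0.962). Of 13 common reference genes, 1 was called, Gusb, a lysosomal enzyme, which rose with a log2 fold change of 1.86 (adjusted p = 0.029, kept in 1 of 6 fits that left out 1 library, the one without control library 2), and the largest estimate below 0 was -0.27 for Ppia.

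CArG boxes were sought in the RefSeq promoter windows, which run from 250 bases before to 50 bases after each gene's start on GRCm38.p6. The box was searched as the Srf consensus of 2 C, 6 A or T and 2 G, which reads the same on both strands. A match was found for 3 of the 8 members with a window (37.5%), for 488 of 27025 genes with a window (1.81%), and for 5 of 57 related genes of the structural and regulatory lists (8.77%), namely Srf, Vcl, Fhl2, Lima1 and Myl6. The members were chosen as actin isoforms and Srf-dependent contractile genes. That choice favours a higher share, so the shares are no finding about these genes. The stretches around the 3 matches are shown in the direction of the gene, with the box in capitals, at chr11:120348551-120348610 (minus strand), chr2:156775278-156775337 (plus strand) and chr10:79988519-79988578 (plus strand).
Actg1: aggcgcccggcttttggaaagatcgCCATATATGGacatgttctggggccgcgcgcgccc
Myl9: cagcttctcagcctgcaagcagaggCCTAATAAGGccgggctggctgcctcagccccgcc
Cnn2: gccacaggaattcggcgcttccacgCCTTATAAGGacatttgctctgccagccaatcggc
The box lay at bases -90 to -81 from the start of Actg1, -161 to -152 from that of Myl9 and -56 to -47 from that of Cnn2. These 3 genes had log2 fold changes of 0.08, 0.08 and 0.70, none of them past the threshold. A match describes these letters and shows no binding. Windows for Actb and Tagln were not used here.

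Srf itself had a log2 fold change of 0.29 (353, 172 and 342 normalized counts in the control and 339, 388 and 288 in the ILK-K5 libraries, adjusted p = 0.866), and its coactivators Mkl1 and Mkl2, the Mrtf proteins, had 0.57 and 0.25. Of the 6 tested genes of this list, 1 rose, the ternary complex factor Elk3 (log2 fold change 1.90, adjusted p = 0.0146). Elk3 had 61.7, 91.2 and 63.9 normalized counts in the control and 340.4, 241 and 234 in the ILK-K5 libraries, and Elk1, the lowest of the list, had a log2 fold change of -0.18. None of 6 immediate early genes that Srf controls was called, from 0.55 for Egr1 to 1.29 for Egr2 (adjusted p = 0.112). An unadjusted p under 0.05 in limma was found for 1 of the 6 and for 12.3% of all genes tested.

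Among the partners of the 10 genes by role, tropomyosins, calponins and their relatives gave 1 call among 8 tested genes. Their median log2 fold change was 0.56. Of the 8, 2 had an unadjusted p under 0.05 in limma, where 12.3% of all genes tested did. All ILK-K5 libraries lay above all controls for 3 of them and for 10.9% of all genes tested. Tpm2, the β-tropomyosin, rose with a log2 fold change of 1.47 (adjusted p = 0.0406), from 305, 338 and 441 normalized counts in the control to 797, 1501 and 810.4 in the ILK-K5 libraries. This call was kept in 1 of 6 fits that each left out 1 library, the one without control library 3, with adjusted p values of 0.0418 to 0.189. The largest fall in estimate was -0.45 for Tmod3, a capping protein of the pointed filament end.

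Of 12 focal adhesion linkers, 1 was called, where 2.93% of all genes tested were called higher, and the median was 0.73. Of the 12, 5 had an unadjusted p under 0.05 in limma, where 12.3% of all genes tested did. All ILK-K5 libraries lay above all controls for 4 of them and for 10.9% of all genes tested. Fhl2, a LIM protein that binds integrin tails and Srf, rose with a log2 fold change of 2.40 (adjusted p = 0.0128), from 18.3, 27.4 and 29.0 normalized counts in the control to 129, 167 and 109 in the ILK-K5 libraries. The call was lost when any 1 ILK-K5 library was left out, with an adjusted p of up to 0.110, as was that of Elk3, with up to 0.0738. The lowest estimate of the list was -0.96 for Tns1, a tensin.

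The strongest fall in the actin system was that of Pfn2, a profilin that binds actin monomers. Pfn2 had 519, 275 and 371.5 normalized counts in the control and 44.4, 78.7 and 76.0 in the ILK-K5 libraries, a log2 fold change of -2.53 (adjusted p = 0.00572). It was called in each of the 6 fits without 1 library. The other profilin tested, Pfn1, had a log2 fold change of 0.98 with overlapping libraries (137, 315 and 858 in the control and 266, 1313 and 813 in the ILK-K5 libraries, adjusted p = 0.732). Among 16 genes of actin turnover, Pfn2 was the only call, where 0.599% of all genes tested were called lower. The median was 0.36.

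No gene was called among 8 myosin II chains and regulators or 10 cross-linkers. Of these, 1 and 4 had an unadjusted p under 0.05 in limma, where 12.3% of all genes tested did. The medians were -0.14 and 0.25. Among the myosin genes the estimates ran from -1.40 for the heavy chain Myh14 (adjusted p = 0.0925) to 0.22 for the heavy chain Myh10. Among the cross-linkers they ran from -0.86 for Pls3, a plastin, to 3.64 for Fscn1, the bundling protein fascin (0, 6.08 and 11.6 normalized counts in the control and 30.7, 98.0 and 53.6 in the ILK-K5 libraries, adjusted p = 0.0914).

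**Figure D4:**
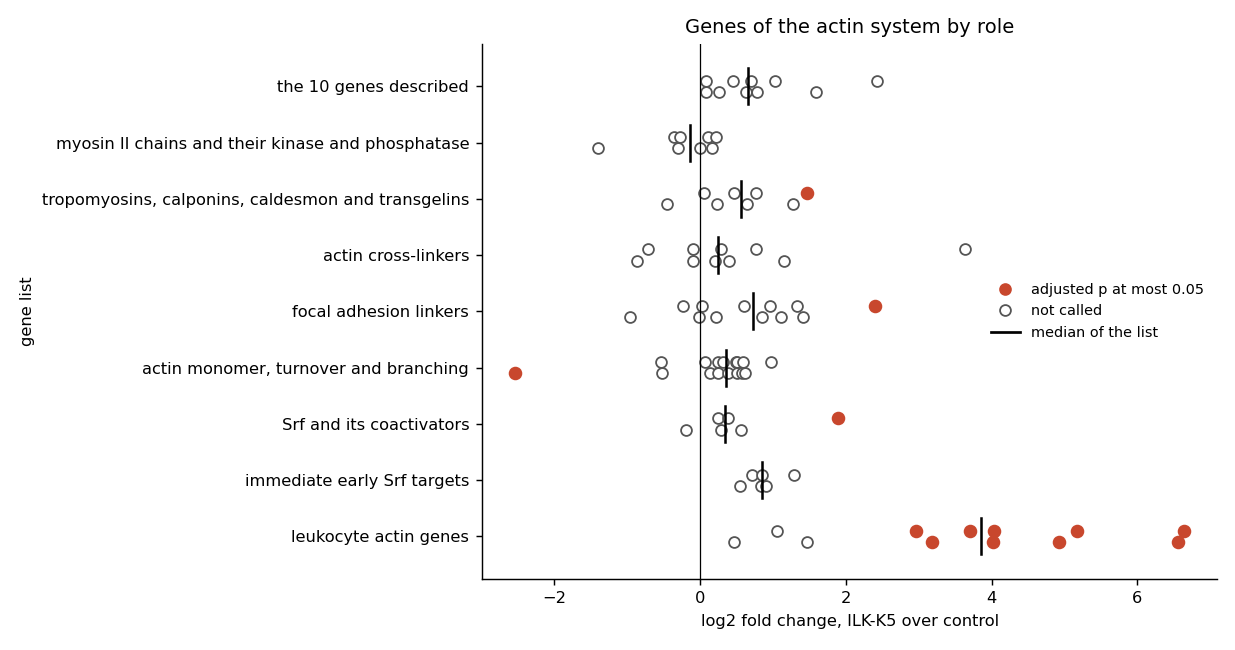
Log2 fold change of ILK-K5 over control for the tested genes of 9 lists of the actin system; each point is 1 gene, filled points have an adjusted p of at most 0.05 in limma, and bars are the medians of the lists. None of the 10 genes described is called, and most calls lie in the list of leukocyte actin genes.

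Actin genes typical of leukocytes behaved otherwise. Of 12 tested, 9 rose, where 2.93% of all genes tested were called higher, and the median log2 fold change over the list was 3.86. The list was chosen with earlier results of these data known, so this share is no independent finding. The 9 genes were Lcp1, Coro1a, Was, Hcls1, Rac2, Myo1f, Myo1g, Dock2 and Nckap1l. Coro1a, Was, Hcls1, Myo1f and Nckap1l had control means of 1.21 to 6.01 normalized counts. They thus passed the minimum mean of 10 only through the ILK-K5 libraries. Lcp1, the leukocyte plastin, had 58.9, 48.7 and 99.4 normalized counts in the control and 2295, 2089 and 1758 in the ILK-K5 libraries (log2 fold change 4.93, adjusted p = 0.000142). The largest estimate was 6.64 for Myo1f, a class I myosin, with 2, 0 and 5 reads in the control libraries, and the smallest was 0.46 for Capg, a capping protein that was not called. In fits that each left out 1 library, Lcp1, Dock2, Myo1f, Myo1g and Nckap1l were called in all 6, Hcls1 in 4, Coro1a in 3, Was in 2 and Rac2 in 1. ILK-K5 libraries 2 and 3 were each needed for the calls of those last 4 genes, control library 2 also for Coro1a, Was and Rac2, ILK-K5 library 1 for Was and Rac2, and control library 3 for Rac2, with an adjusted p of up to 0.231 without them. All 13 macrophage markers were also called higher. The most abundant was Lyz2, with 0, 19.8 and 12.3 normalized counts in the control and 1869, 4998 and 3462 in the ILK-K5 libraries. Whether both lists vary together from library to library was not tested. The part of macrophages in the levels of Acta2, Flna, Actb and the other ubiquitous actin genes was not tested.

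Cell types that express Acta2 and Tagln were followed by 12 markers of smooth muscle and pericytes, of which 6 were tested and 1 was called. Their summed level was 616 to 1034 normalized counts in control and 789 to 1246 in ILK-K5 libraries, most of it from Cspg4 (384 to 757 over all libraries). Among the defining markers of smooth muscle, Lmod1 was at 0 in every library, Des had at most 3 and Actg2 at most 2 reads, and Myh11 had 31, 0 and 12 reads in the control and 2, 6 and 2 reads in the ILK-K5 libraries. Cnn1, the calponin of smooth muscle, had 1, 13 and 15 reads in the control and 23, 15 and 20 reads in the ILK-K5 libraries, with overlap (log2 fold change 1.28, adjusted p = 0.733). The called marker was Mcam, an adhesion molecule, which rose by 1.94 on the log2 scale (54.0, 109 and 103 normalized counts in the control and 263, 481 and 280 in the ILK-K5 libraries, adjusted p = 0.0293). This call was lost without control library 2 or any 1 ILK-K5 library, with an adjusted p of up to 0.166. Pdgfrb, a receptor of pericytes and fibroblasts, had 0, 0 and 1.45 normalized counts in the control and 19.4, 27.8 and 12.7 in the ILK-K5 libraries (adjusted p = 0.0519). Of the 6 tested markers, 3 had a log2 fold change below 0, namely Abcc9 (-0.75), Notch3 (-0.25) and Cspg4 (-0.08), and none of these was called. The pericyte marker Rgs5, not tested, had a mean of 6.69 normalized counts in control and 6.73 in ILK-K5 libraries. Of 7 fibroblast markers, 5 were tested and 1 was called, Col3a1, which rose by 4.13 on the log2 scale (25.1, 19.8 and 94.3 normalized counts in the control and 1086, 536 and 472 in the ILK-K5 libraries, adjusted p = 0.00447). The summed fibroblast markers, mostly Postn, were at 40588 to 69827 normalized counts in control and 35488 to 53393 in ILK-K5 libraries. Of the 5 tested, 3 had all ILK-K5 libraries above all controls, as had 10.9% of all genes tested. They were Col3a1, Col1a1 (373 to 476 against 696 to 902 normalized counts, adjusted p = 0.141) and Col1a2 (175 to 259 against 263 to 623 normalized counts, adjusted p = 0.409). Lum, not tested, had 0 reads in every control library and 17, 14 and 6 in the ILK-K5 libraries. The part of these cells in the Acta2 and Tagln values was not tested.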

How the data were processed

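RNA was amplified as cDNA, converted to Nextera XT libraries and sequenced as read pairs. The submitters' processing notes name Bowtie, Bowtie2 2.2.4, TopHat2 2.0.14 and DESeq2 1.6.3, and the reads were aligned to GRCm38. The counting program is not given in the sources used here. The authors deposited normalized counts, a signal per gene made by dividing reads by the DESeq2 size factor of a library. In each library 100% of the values were whole reads within 0.001, so reads were recovered. The authors' FPKM were, for every gene, a fixed multiple of its normalized count. Deposited tables of the authors' own comparison hold their fold changes and p-values and were not used. Symbols came from GENCODE M21 (97.5% of 43274 genes), and promoter windows from RefSeq.

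Genotypes were compared in R 4.3.3 with limma 3.58.1 (trended eBayes), on normalized counts to which 1 was added before taking log2, over 16368 genes with a mean of at least 10, so that fold changes of low genes are understated. A two-sided adjusted p (Benjamini-Hochberg) of at most 0.05 made a call. The script was tested on simulated data. Sums and shares were compared with exact permutation tests. edgeR 4.0.16 and DESeq2 1.42.0 on the recovered reads, other pseudocounts (0.1 and 5), filters (none and a mean of 50) and scalings, the FPKM table, a replicate block, a term for library 1 against libraries 2 and 3 (from the column names), libraries 2 and 3 alone and fits without each library were alternatives. The sum of Actg1 and its pseudogenes was added after seeing the data. Python 3.11.15, pandas 2.3.3, Biopython 1.88 and matplotlib 3.10.9 served for tables, sequences and plots.

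The 10 genes and all lists were chosen with earlier results of these data known. The text names the 10 genes, Ilk, every called gene of the companion lists, the largest rise and fall per list, Gapdh and Rps26, the most abundant macrophage, smooth muscle and fibroblast markers and markers near 0. Srf, Mkl1, Mkl2, Pfn1, Cd34, C1qa, Cnn1, Mcam, Pdgfrb, Abcc9, Notch3, Rgs5, Col1a1, Col1a2, Col3a1, Lum, Cd3d, Cd3e, Tyr, Tyrp1, Tek, Pecam1, Pcsk7 and the Actg1 pseudogenes were named after their values were seen where that rule does not name them. The genes of 1 companion list are counted in the totals over the companion lists but are not reported here. None of 3 endothelial, 4 melanocyte, 2 platelet or 4 T cell markers tested was called. Of the 4 T cell markers, 3 had an unadjusted p under 0.05 in limma, where 12.3% of all genes tested did. Log2 fold changes ran from -0.47 (Cd3d) to 2.48 (Cd3e) for T cell markers, from -0.29 (Tyr) to 3.29 (Tyrp1) for melanocyte markers and from -2.02 (Tek) to 0.68 (Pecam1) for endothelial markers. Of 6 differentiated keratinocyte markers 1 was called, Lor, which was lower in ILK-K5 libraries (a call lost when control library 2 or ILK-K5 library 3 was left out).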

Additional observations from a re-analysis of the deposited data

How the results depend on the processing

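No member was called lower under any alternative. Members called higher numbered 0, but 1 in DESeq2 (Acta2) and 2 with a replicate block (Acta2, adjusted p = 0.0394, and Flna, adjusted p = 0.0403, in limma), and 0 to 1 when 1 library was left out. Same-numbered libraries deviated together with correlations of 0.53, 0.020 and 0.31, and control library 2 was closest to ILK-K5 library 3, so the numbers were not taken as pairs. Over all alternatives the log2 fold change ran from 1.59 to 3.18 for Acta2 (adjusted p 0.0298 to 0.437) and from 0.78 to 1.37 for Flna (adjusted p 0.0249 to 0.470). The median of the 10 genes was 0.46 to 1.01 when 1 library was left out. Actg1 turned to -0.11 without control library 2, and was at most 0.31 without any other library. Myl9 turned to -0.063 under quantile normalization, -0.028 in edgeR and -0.045 in DESeq2. It ran from -0.26 (control library 2 left out) to 0.42 (control library 3 left out) and was -0.057 with ILK-K5 library 2 left out. Companion genes called higher (13) numbered 22 with the replicate block and 22 with the term for library 1 against libraries 2 and 3, and 5 to 12 when 1 library was left out, and those called lower (1) numbered 2 in DESeq2, 2 with the block and 2 with the term. All genes called higher (479) numbered 772 in DESeq2, 848 with the block, 846 with the term and 222 to 559 without 1 library, and those called lower (98) numbered 280, 269, 286 and 32 to 98. The difference in Acta2 share, 0.632 percentage points, was 0.772 in libraries 2 and 3 alone (exact permutation test, p = 0.333) and 0.543 to 0.715 without 1 library, and that in summed actin FPKM, 145.5, was 83.3 to 191. The cause of these changes was not tested. At this depth a read count of 3, as for Acta2 in control library 2, limits any fold change.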
